A study of Rattus norvegicus with 12 samples.

Results

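In INS-1E cells, 103 of 14324 genes tested (0.719%) had their highest levels in cells that were preconditioned with low-dose IL-1β and then challenged with cytokines (IL-1βlow + CYT). INS-1E, a clone of a rat insulinoma line with a wild-type (WT) genotype, makes insulin and stands in for primary β-cells; it holds no immune, stromal or other islet cells by design. Untreated cells received no cytokine, IL-1βlow cells received 10 pg/ml IL-1β for 72 h with fresh cytokine every day, CYT cells received IL-1β at 100 pg/ml plus IFN-γ at 5 ng/ml during 16 h, and IL-1βlow + CYT cells received the first treatment, new medium and then the second. Each group had 3 libraries of polyA RNA, labelled as biological replicates; the labels do not say whether they came from separate passages, so p-values measure only the spread between these libraries.

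The genes were chosen by their levels, in counts scaled to the library total (CPM). A gene had to exceed 1 CPM in at least 2 of the 12 libraries and reach a mean of at least 2 CPM in IL-1βlow + CYT cells. That mean also had to be at least 1.5 times the mean of each of the 3 other groups, and every IL-1βlow + CYT library had to lie above every other library. The levels in IL-1βlow + CYT cells and their distance from the other groups are therefore a description and carry no test. CYT against untreated and IL-1βlow against untreated contrast no IL-1βlow + CYT library and were tested gene by gene over the whole table, but the filter, the scaling and the estimate of the spread came from all 12 libraries. The rule also set a ceiling on every untreated, IL-1βlow and CYT library, so the shares of members called, set beside those of all genes, are a description and not independent of the choice. Without the IL-1βlow + CYT libraries, 98 of the 103 members pass the filter; Hapln1, Lrriq4, Cav1, Tnfsf13 and LOC108352389 pass it only through them. Both share the untreated libraries, so that their calls are not independent of each other.

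IL-1β acts through its receptor and MyD88 on NF-κB, and IFN-γ acts through the JAK kinases; GAS elements and interferon-stimulated response elements (ISRE) are found in the promoters of genes it induces. In β-cells the combination induces chemokines, antigen presentation and nitric oxide synthesis and lowers the expression of many β-cell genes. Cells that have met a small dose of a ligand can respond less to the next dose (tolerance) or more (priming). For the genes chosen here, the rule fixed the comparison of challenged cells with and without preconditioning. That comparison therefore cannot decide between tolerance and priming.

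Total counts ran from 15812640 to 20246806 per library, and the ribosomal RNA gene Rn45s took between 6.89% and 11.1% of them. The 8 β-cell markers summed to between 41890 and 51660 CPM in untreated libraries and 39070 and 44180 in IL-1βlow. The sums were 13990 to 14450 in CYT and 20080 to 25180 in IL-1βlow + CYT libraries, so the sum stayed high in every group. Ins1 and Chga gave most of it, at means of 24050 and 10390 CPM in untreated and 7104 and 3656 in CYT cells. The markers did not move alike. Nkx6-1 fell from a mean of 34.05 CPM in untreated to 10.0 in CYT cells, while Slc2a2 was highest in IL-1βlow + CYT cells (593 CPM). Fewer cells of a kind and less RNA per cell cannot be told apart in such bulk samples. Markers of other cell types moved between the groups as well. The 4 duct markers, nearly all Krt7, summed to between 170.6 and 200.8 CPM in untreated, 253.2 and 311.4 in IL-1βlow, 590.1 and 768.3 in CYT, and 399.1 and 501.3 in IL-1βlow + CYT libraries. The 5 α-cell markers, mostly Gcg, summed to between 205 and 377.3, 166.5 and 279.2, 29.9 and 69.3, and 82.7 and 160 CPM in the same order. The acinar, δ-cell, PP-cell and leukocyte sums stayed under 1 CPM in every library, and the macrophage markers are given beside Adgre1. The 7 fibroblast and stellate markers summed to between 12.4 and 16.1 CPM in untreated and 9.63 and 11.7 in IL-1βlow + CYT libraries, and the 5 endothelial markers to between 11.6 and 19.7 and 7.21 and 9.53 CPM; both sums were lowest with CYT. The part of any other cell type in the members' levels was not tested.

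IL-1βlow + CYT cells had the highest group mean at 2138 genes (14.9% of those tested). Of these, 121 met the conditions on the mean and the ratio, and 103 also had no overlap between libraries. The same rule applied to the other groups chose 1499 genes highest in CYT cells, 107 highest in untreated cells and 7 highest in IL-1βlow cells. The mean level of the 103 genes in IL-1βlow + CYT cells ran from 2.00 to 420.3 CPM with a median of 23.9, and 20 lay under 5 CPM, where counts are few. Their ratio to the highest other group had a median of 1.80 and ran from 1.51 to 12.2; it was at least 2 for 36 genes and at least 3 for 11. The second-highest group was CYT for 68 genes, IL-1βlow for 26 and untreated for 9.

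The limits of the rule cut through a continuous range. The genes just inside were Lpl (lipoprotein lipase; ratio 1.509), Mycbp2 (a large E3 ubiquitin ligase; 1.509) and Adamts3 (a procollagen protease; 1.51). Those just outside were Cidec (a lipid droplet protein; 1.498), Rbl2 (a pocket protein of the cell cycle; 1.498) and LOC103693391 (1.497). For 10 members the lowest IL-1βlow + CYT library was less than 1.1 times the highest other library; the narrowest gap, 1.006 times, was that of Vwa1.

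**Figure D1:**
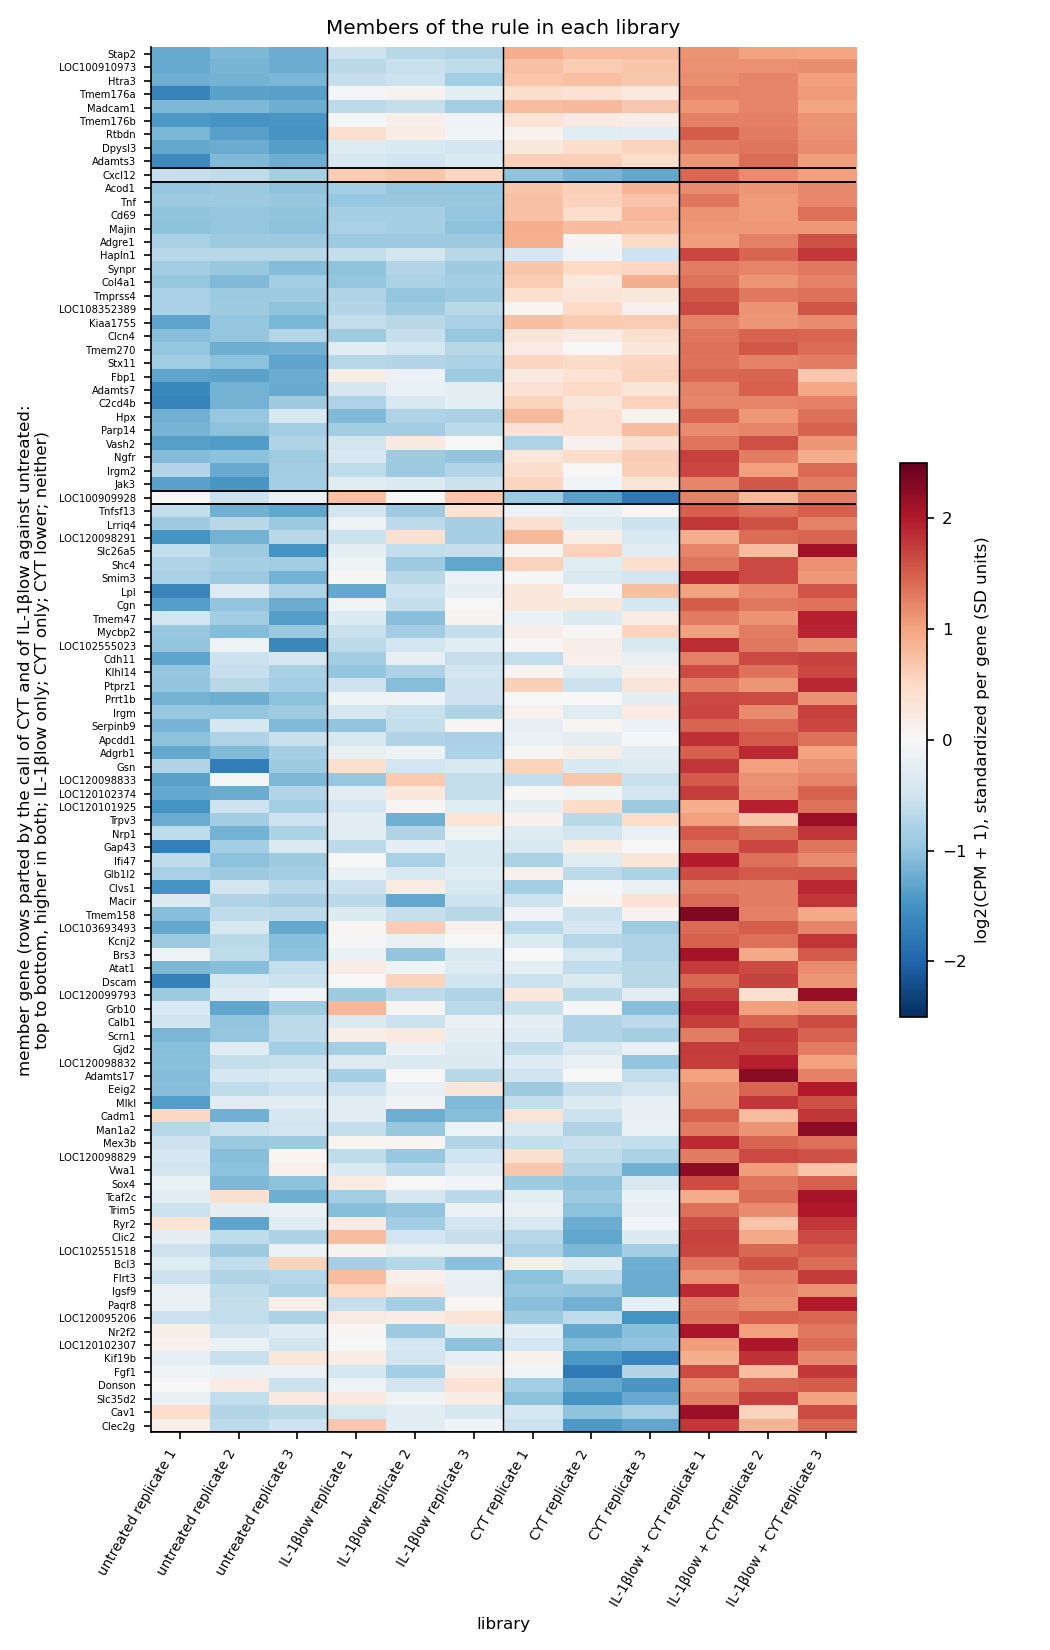
Level of each of the 103 members (rows) in the 12 libraries (columns), as log2(CPM + 1) standardized per gene in SD units; black lines part the groups and the calls of the separate treatments. The 3 IL-1βlow + CYT columns are the highest by choice, whereas the CYT columns are red in the upper rows and pale or blue in most of the lower rows.

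The choice was repeated with the libraries of 1 replicate number held out, and the genes so chosen were read in those libraries. With replicate 3, 1 and 2 held out, 89 of 112, 99 of 118 and 93 of 104 chosen genes are members. The shares below count genes within the same 12 libraries, not replicates, so they are a description and carry no test. With replicate 3 held out, 112 genes were chosen on 8 libraries, and in 106 of them (94.6%) the held-out IL-1βlow + CYT library was the highest of the 4 held-out libraries. Over all genes tested this was so for 17.7%. The share was 98.3% of 118 genes with replicate 1 held out and 98.1% of 104 with replicate 2 held out, against 16.3% and 15.6% over all genes. The held-out ratio to the highest other library reached 1.5 in 65.2% to 82.7% of the chosen genes, beside 1.06% to 1.49% of all genes, with medians between 1.69 and 1.78, beside 0.791 to 0.823.

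The challenge alone raised 32 of the 103 members (31.1%) past an adjusted p of 0.01 and a log2 fold change of 1, where 10.0% of all genes tested were called higher. Of the 32, 30 are among the 98 members that pass the filter without the IL-1βlow + CYT libraries. A fit of the untreated and CYT libraries alone also called 30 of 98 tested members higher (30.6%, beside 10.9% of all genes). CYT lowered 1 member, where 11.6% of all genes were called lower. Low-dose IL-1β alone raised 10 members (9.71%) past an adjusted p of 0.01 and a log2 fold change of 0.6, where 0.265% of all genes were called higher. It lowered none by this edgeR test, with 0.168% of all genes called lower. Of the members, 9 were higher with either treatment, 23 with the challenge only, 1 with low-dose IL-1β only, 1 was lower with the challenge, and 69 (67.0%) passed neither test, beside 78.2% of all genes tested. Every CYT library lay above every untreated library in 53 members (51.5%, beside 32.6% of all genes tested) and below in 5 (4.85%, beside 35.9%). Every IL-1βlow library lay above every untreated library in 38 members (36.9%, beside 13.8%) and below in 1 (0.971%, beside 8.62%). The median log2 fold change of the members was 0.51 with CYT and 0.37 with IL-1βlow, beside -0.04 and 0.00 over all genes tested. With members at 3 counts or fewer set to their bound it was 0.49 and 0.29. In either direction, 10 members (9.71%) were called with IL-1βlow, beside 0.433% of all genes tested. That count fell to 6 without untreated replicate 1 (5.83%, beside 0.147%) and to 6 without untreated replicate 3 (beside 0.112%), and rose to 18 without a filter on low counts (17.5%, beside 0.945%). With CYT, 33 members (32.0%) were called in either direction, beside 21.6% of all genes tested. With at least 10 counts asked in every library, 77 members were still tested and 15 of them (19.5%) were called with CYT, beside 18.7% of all genes tested, so in either direction the members' share was then close to that of all genes. All 15 were called higher, beside 8.94% of all genes, and the 18 called members that dropped out were not tested under that filter.

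**Figure D2:**
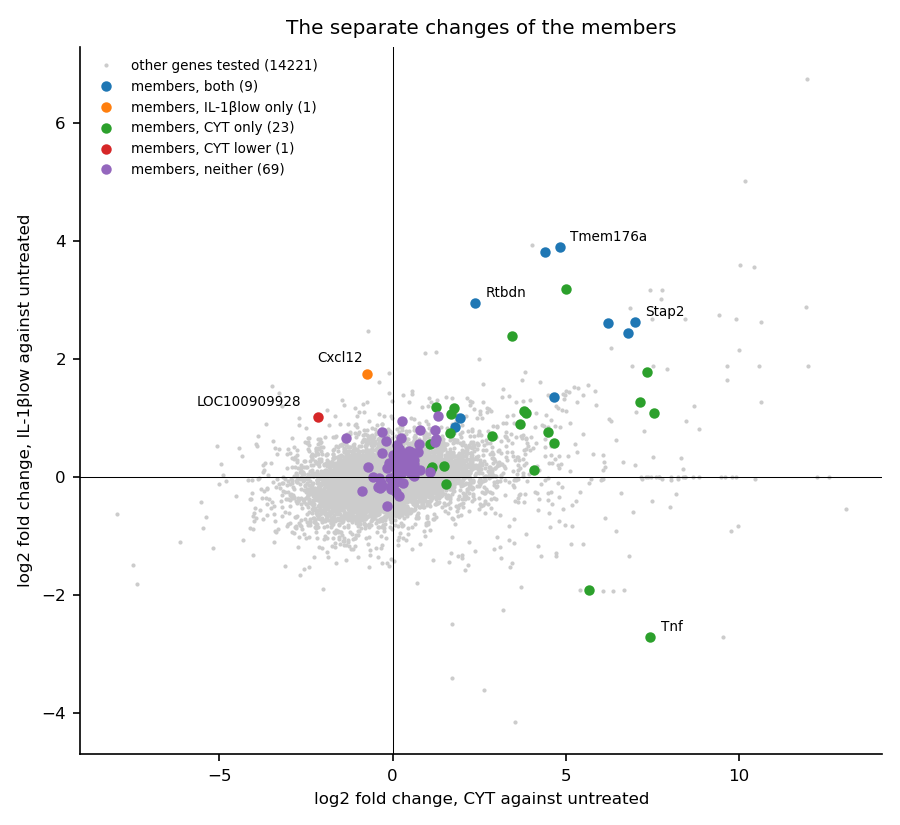
Log2 fold change of CYT (horizontal) and of IL-1βlow (vertical) against untreated cells, for the members (coloured by which test they passed) and the other genes tested (grey). Of the 103 members, 63 lie within 1 unit of 0 on both axes. The 9 called with both treatments lie in the upper right together with members called with CYT alone, such as Tmem270. Hapln1 is drawn there too, but its fitted values rest on untreated libraries without a count, and nothing is read from its place. LOC100909928 and Clec2g lie farthest to the left, and Tnf lies low because its fitted IL-1βlow value rests on 0 counts.

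The member with the highest CPM, LOC100910973 (CPM takes no account of transcript length), is a long non-coding RNA that both treatments raised. It stood at 1.23, 1.69 and 1.33 CPM in the untreated libraries and at 6.98, 9.14 and 7.50 CPM in the IL-1βlow libraries. It stood at 171, 138 and 157 CPM in the CYT libraries and at 424, 411 and 426 CPM in the IL-1βlow + CYT libraries. The 4 groups did not overlap, and the 3 IL-1βlow + CYT libraries lay close together. Its log2 fold change was 6.78 ± 0.15 (SE) with CYT (adjusted p = 5.11e-13) and 2.45 ± 0.17 with IL-1βlow (adjusted p = 2.58e-06). No other gene overlaps it in the RefSeq annotation of the assembly GRCr8.

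Tmem176a and Tmem176b are neighbouring and overlapping genes for intracellular membrane proteins best known from dendritic cells and macrophages. Among the called members, they had the largest log2 fold changes with IL-1βlow. Tmem176b was at 1.51, 1.40 and 1.46 CPM in untreated libraries, at 19.2, 25.3 and 18.2 in IL-1βlow, at 36.7, 28.5 and 26.6 in CYT and at 143, 142 and 114 in IL-1βlow + CYT libraries. Each group lay above the one before without overlap. Its log2 fold change was 3.82 ± 0.21 with IL-1βlow (adjusted p = 1.72e-07) and 4.40 ± 0.21 with CYT (adjusted p = 4.4e-10). Tmem176a rose from between 0.336 and 1.16 CPM in untreated to between 9.52 and 15.9 CPM in IL-1βlow libraries, and lay between 68.3 and 88.1 CPM in IL-1βlow + CYT libraries. Because the genes overlap and the strand setting of the counting is not given in the sources used here, reads of the one may be counted for the other.

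Rtbdn, which encodes the riboflavin-binding protein retbindin, was the called member with the next largest rise with IL-1βlow. It was at 2.63, 1.86 and 1.52 CPM in untreated libraries, at 20.4, 15.6 and 11.5 in IL-1βlow, at 13.9, 8.45 and 9.03 in CYT and at 73.9, 58.5 and 47.9 in IL-1βlow + CYT libraries. The IL-1βlow and CYT libraries overlapped each other, and both lay above the untreated ones. The log2 fold change was 2.95 ± 0.29 with IL-1βlow (adjusted p = 0.000132) and 2.38 ± 0.30 with CYT (adjusted p = 8.55e-06).

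Dpysl3, a cytoskeletal regulator of neurite growth, moved in even steps. Its libraries held 25.7, 26.8 and 23.9 CPM untreated, 54.9, 52.4 and 48.6 CPM with IL-1βlow, 86.6, 99.4 and 108 CPM with CYT and 191, 197 and 175 CPM with IL-1βlow + CYT. No group overlapped another, and the log2 fold change was 1.01 ± 0.10 with IL-1βlow (adjusted p = 0.000165) and 1.96 ± 0.10 with CYT (adjusted p = 1.34e-09).

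The remaining 4 members called with both treatments rose with IL-1βlow in the fit of all libraries, but each lost that call when 1 of the libraries was left out. Madcam1, an integrin ligand of mucosal endothelium, was at 1.46, 1.46 and 1.14 CPM in untreated, 3.73, 4.18 and 2.65 in IL-1βlow, 34.7, 36.6 and 30.1 in CYT and 55.9, 64.5 and 47.2 in IL-1βlow + CYT libraries. The groups did not overlap. Adamts3 had a mean of 9.97 CPM in untreated, 18.1 in IL-1βlow, 34.1 in CYT and 51.6 in IL-1βlow + CYT cells. Htra3, a secreted serine protease, and Stap2, a signalling adaptor, rose with CYT by 6.22 ± 0.28 (adjusted p = 2.98e-10) and 7.001 ± 0.25 (adjusted p = 3.74e-11) on the log2 scale, and their IL-1βlow + CYT means were 53.3 and 103 CPM. The 6 genes that kept the IL-1βlow call without each of the 6 libraries compared were LOC100910973, Dpysl3, Tmem176a, Tmem176b, Rtbdn and Cxcl12.

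Cxcl12, the chemokine that binds CXCR4, was the only member called with IL-1βlow and not called higher with CYT. It stood at 4.15, 3.96 and 3.16 CPM in untreated, at 12.9, 13.8 and 11.9 in IL-1βlow, at 2.65, 2.20 and 1.90 in CYT and at 26.0, 20.9 and 18.3 in IL-1βlow + CYT libraries. The CYT libraries were the lowest and the IL-1βlow + CYT libraries the highest, with no overlap among the 4 groups. The rise with IL-1βlow was 1.75 ± 0.18 on the log2 scale (adjusted p = 0.0002). With CYT the log2 fold change was -0.73 ± 0.21 (adjusted p = 0.00703), which misses the fold change minimum.

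**Figure D3:**
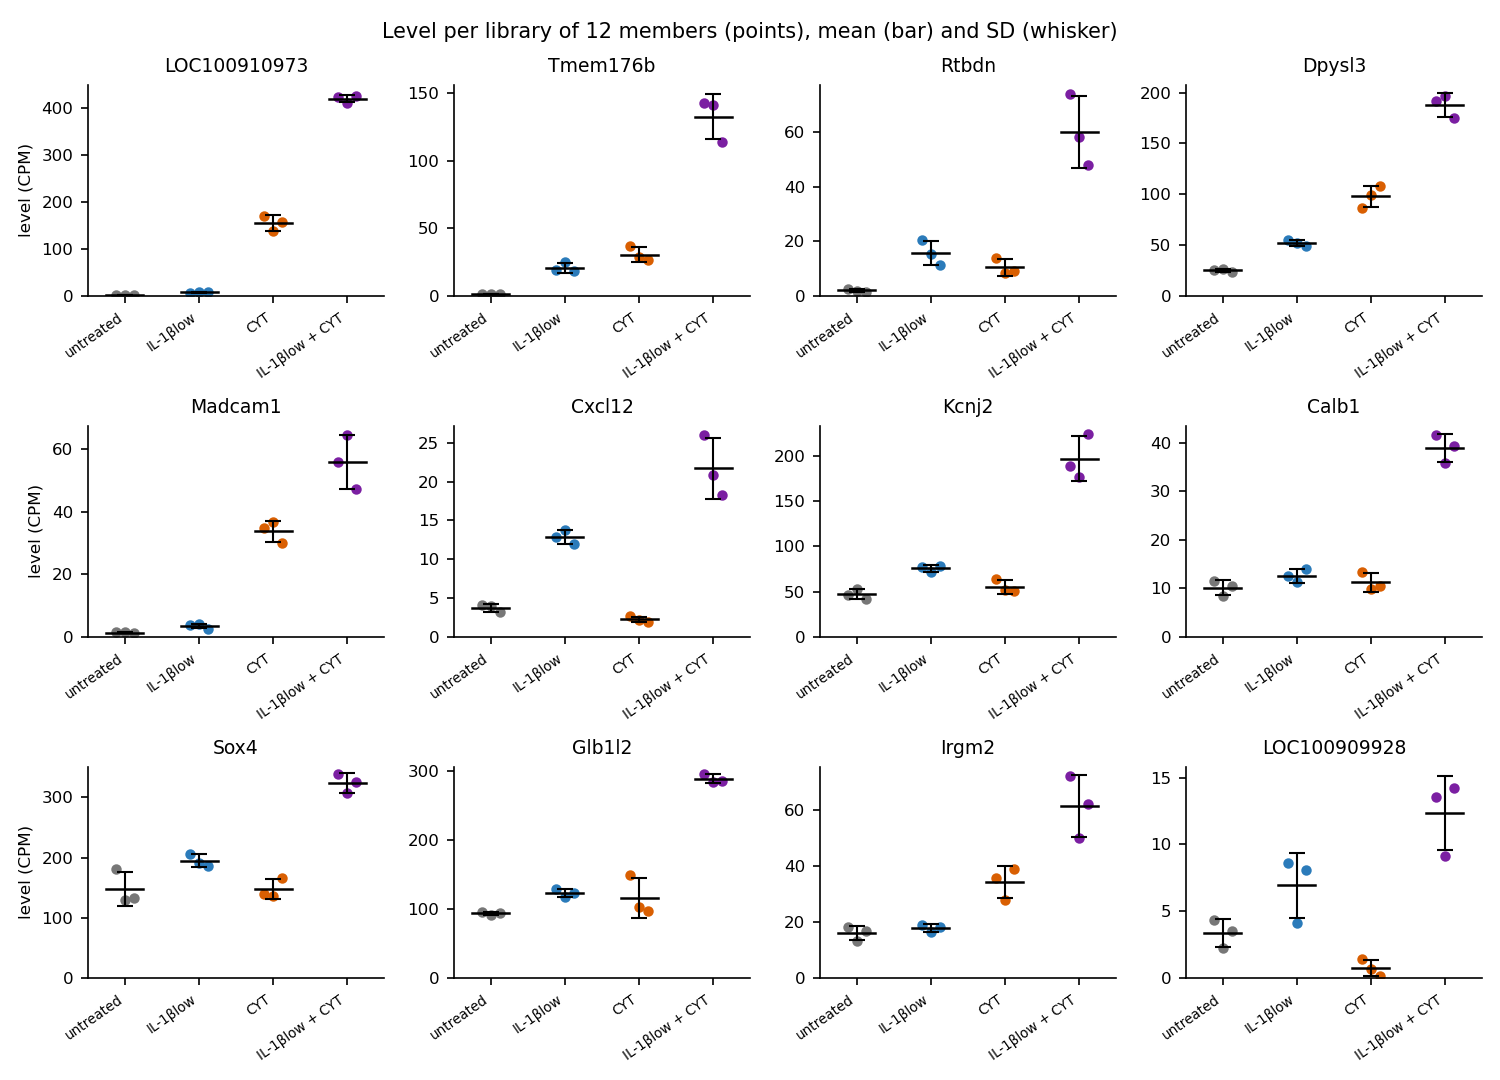
Level in CPM per library (points) with the mean (bar) and SD (whisker, n = 3) of 12 members in the 4 groups, each panel on its own linear axis from 0. LOC100910973, Tmem176b, Dpysl3 and Madcam1 step up from group to group, and Cxcl12 and LOC100909928 are lowest in CYT cells. Kcnj2, Calb1, Sox4 and Glb1l2 stand out most in IL-1βlow + CYT cells. The IL-1βlow libraries of Kcnj2, Sox4 and Glb1l2 also lie above their untreated libraries.

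Acod1, Tnf and Cd69 had the 3 largest fitted rises with CYT among the called members, an order that rests on untreated libraries with at most 3 counts. With such groups set to 3 counts per library, the ratios of the CYT to the untreated mean were larger for Majin, a meiotic telomere protein gene (143.5), Stap2 (128.5) and LOC100910973 (109.6). Acod1, which makes the antimicrobial metabolite itaconate in macrophages, had at most 3 counts in every untreated library and stood at 11.7, 10.1 and 14.9 CPM in CYT and 25.6, 22.7 and 26.4 CPM in IL-1βlow + CYT libraries. Its CYT mean was at least 69.0-fold higher than 3 counts in the untreated libraries. The cytokine gene Tnf had no count in any IL-1βlow library and at most 3 in the untreated ones, and was at 8.59, 6.71 and 8.47 CPM in CYT and 20.6, 14.2 and 17.1 CPM in IL-1βlow + CYT libraries. Its CYT mean was at least 44.6-fold higher than in untreated cells, and the IL-1βlow + CYT mean was 2.19 times the CYT mean. Cd69, a C-type lectin of activated lymphocytes, was at 14.6, 8.96 and 17.4 CPM in CYT and 27.9, 25.1 and 42.2 CPM in IL-1βlow + CYT libraries, and its CYT mean was at least 77.1-fold higher than in untreated cells. The adjusted p for CYT was 8.59e-10 for Acod1, 9.58e-09 for Tnf and 6.84e-09 for Cd69.

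Adgre1, the gene of the macrophage antigen F4/80 and itself one of the macrophage markers, was also a member, at 1.94, 0.789 and 1.28 CPM in CYT and 2.22, 2.67 and 3.48 CPM in IL-1βlow + CYT libraries. The summed level of the 7 macrophage markers moved with it, from between 1.16 and 1.68 CPM in untreated and 0.892 and 1.13 in IL-1βlow to between 2.31 and 3.56 in CYT and 4.39 and 5.82 CPM in IL-1βlow + CYT libraries. Of these 7, Cd14 and Itgam were at 0 counts throughout, Lyz2 and Aif1 never exceeded 3 counts in a library, and Adgre1 made up 2.79 CPM of the IL-1βlow + CYT sum. Csf1r, the receptor of macrophage colony-stimulating factor, had means of 0.629 CPM in untreated, 0.308 in IL-1βlow, 0.164 in CYT and 1.43 in IL-1βlow + CYT cells, and so was also highest there, and Cd68 had means of 0.705, 0.595, 1.06 and 0.798 CPM. The part of such cells in the levels of Adgre1 was not tested. The 5 leukocyte markers together stayed between 0 and 0.424 CPM, with Ptprc and Nkg7 at 0.

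Ngfr, the p75 neurotrophin receptor and a member of the TNF receptor family, rose with CYT by 1.13 ± 0.14 on the log2 scale (adjusted p = 1.04e-05), from a mean of 43.0 to 93.0 CPM, and reached 178, 143 and 118 CPM in IL-1βlow + CYT libraries. Hapln1, which links hyaluronan to proteoglycans, had the largest ratio to the highest other group. It had no count in untreated cells and was at 0.162, 0.395 and 0.103 CPM in CYT, and at 2.76, 2.32 and 2.94 CPM in IL-1βlow + CYT libraries, 12.2 times the CYT mean. Its call with CYT was lost without CYT replicate 2 and without any 1 of the untreated libraries. The CYT mean was at least 1.24-fold above 3 counts in the untreated libraries. Hapln1 passes the filter only through the IL-1βlow + CYT libraries and had no call in the fit of untreated and CYT libraries alone. Nothing is therefore read from its call with CYT. Tmprss4, a transmembrane serine protease, rose with CYT by 4.08 ± 0.37 (adjusted p = 3.27e-07) and had a mean of 9.77 CPM in IL-1βlow + CYT cells, 3.56 times that of CYT cells.

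Further members were raised by CYT and not called with IL-1βlow. Col4a1, a chain of basement membrane collagen, had a CYT mean at least 13.2-fold above 3 counts in untreated libraries and a mean of 4.16 CPM in IL-1βlow + CYT cells. Adamts7, a metalloprotease, rose by 1.69 ± 0.18 with CYT (adjusted p = 2e-06), and Hpx, the heme-binding hemopexin, by 1.53 ± 0.32 (adjusted p = 0.000769). Adamts7 had a log2 fold change of 1.07 ± 0.19 with IL-1βlow (adjusted p = 0.0102), just short of the threshold. It passed with the replicate block (1.07, adjusted p = 0.00167), with RLE size factors, without a filter on low counts, with exactTest and with DESeq2's Wald test, and over the alternatives its adjusted p ran from 0.000178 to 0.0679. Clcn4, a chloride and proton exchanger, had at most 3 counts in every untreated library and a CYT mean at least 6.04-fold above that; it was at 2.58, 2.87 and 2.82 CPM in IL-1βlow + CYT libraries. Tmem270 rose with CYT by 3.45 ± 0.45 (adjusted p = 1.24e-05) and had a mean of 3.97 CPM in IL-1βlow + CYT cells; it was also called with IL-1βlow without a filter on low counts and with exactTest.

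Immunity-related GTPases, which IFN-γ induces and which attack vacuoles of intracellular pathogens, gave 3 members. Irgm2 was at 18.1, 13.2 and 16.8 CPM in untreated, 19.1, 16.3 and 18.1 in IL-1βlow, 35.7, 27.7 and 38.9 in CYT and 72.0, 49.7 and 62.0 in IL-1βlow + CYT libraries. The untreated and IL-1βlow libraries overlapped, and CYT raised the gene by 1.11 ± 0.16 (adjusted p = 3.06e-05). Irgm was at 23.8, 20.5 and 24.7 CPM in CYT and 42.9, 35.7 and 43.5 CPM in IL-1βlow + CYT libraries, and its log2 fold change with CYT was 0.53 ± 0.11 (adjusted p = 0.000768), under the fold change minimum. Ifi47 had means of 23.3, 27.4, 28.9 and 53.1 CPM in the order untreated, IL-1βlow, CYT and IL-1βlow + CYT, and with CYT a log2 fold change of 0.33 ± 0.15 (adjusted p = 0.0668). These genes belong to a family of similar copies, so the division of reads among them is uncertain. Of 33 tested class II and interferon-γ genes, 30 were called higher with CYT (median log2 fold change of the list 3.30). These 3 were members (9.09%, beside 0.719% of all genes tested), and Irgm and Ifi47 are among the 3 genes of the list not called with CYT.

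Promoter sequences are shown for 5 members that carry a κB motif, an ISRE or a GAS match, because those are the elements through which IL-1β and IFN-γ are known to act. They are the 250 bases before the transcription start, read from the RefSeq promoter table of the assembly GRCr8, 5′ to 3′ on the strand of the gene, with the matches in capitals. LOC100910973 (chr1:217133248-217133497, minus strand) has a κB match 192 bases before the start and an ISRE match 50 bases before it. Tmem176a (chr4:79105569-79105818, plus strand) has a κB match at 182 bases, and Madcam1 (chr7:10690323-10690572, minus strand) has κB matches at 118 and 106 bases. Irgm2 (chr10:42889720-42889969, plus strand) has a GAS match at 113 bases and an ISRE match at 102, and Parp14 (chr11:78407884-78408133, plus strand) has them at 87 and 76 bases.
LOC100910973: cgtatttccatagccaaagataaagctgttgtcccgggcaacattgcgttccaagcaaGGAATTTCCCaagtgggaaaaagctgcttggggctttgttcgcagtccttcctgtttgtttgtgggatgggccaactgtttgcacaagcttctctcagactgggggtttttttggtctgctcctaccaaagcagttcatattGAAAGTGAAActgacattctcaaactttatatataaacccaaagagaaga
Tmem176a: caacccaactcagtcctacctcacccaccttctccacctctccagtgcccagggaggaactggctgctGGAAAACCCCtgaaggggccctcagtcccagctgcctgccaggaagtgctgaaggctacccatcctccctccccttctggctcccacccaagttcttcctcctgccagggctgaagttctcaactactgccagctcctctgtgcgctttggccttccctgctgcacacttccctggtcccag
Madcam1: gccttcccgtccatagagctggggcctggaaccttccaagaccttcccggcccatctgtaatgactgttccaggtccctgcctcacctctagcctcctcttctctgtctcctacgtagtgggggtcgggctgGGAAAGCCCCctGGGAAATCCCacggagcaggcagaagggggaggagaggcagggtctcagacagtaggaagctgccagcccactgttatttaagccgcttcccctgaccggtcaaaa
Irgm2: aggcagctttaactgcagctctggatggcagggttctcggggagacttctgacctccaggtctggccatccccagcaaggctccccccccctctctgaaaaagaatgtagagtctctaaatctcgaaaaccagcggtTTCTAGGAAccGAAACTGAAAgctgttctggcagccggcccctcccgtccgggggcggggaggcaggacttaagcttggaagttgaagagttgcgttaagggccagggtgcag
Parp14: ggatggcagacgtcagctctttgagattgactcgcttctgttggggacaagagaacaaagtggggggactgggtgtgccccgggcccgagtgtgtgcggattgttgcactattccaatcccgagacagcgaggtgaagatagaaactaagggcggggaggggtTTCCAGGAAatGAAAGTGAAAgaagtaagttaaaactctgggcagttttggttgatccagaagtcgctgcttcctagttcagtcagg

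In Irgm2 and in Parp14 the GAS match is followed by 2 bases and then by the ISRE match, a run of 21 bases. Irgm has the same arrangement, and 7 of all 27457 promoters in the table (0.0255%) hold it on either strand; this arrangement was looked for after the matches had been seen. Parp14, a mono-ADP-ribosyltransferase that was chosen after its values were seen, was at 63.7, 65.4 and 83.6 CPM in CYT and 111, 113 and 134 CPM in IL-1βlow + CYT libraries. Its log2 fold change with CYT was 1.49 ± 0.11 (adjusted p = 6.14e-08).

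Of the 103 members, 80 had a promoter of 300 bases in the table, which runs from 250 bases before to 50 bases after the start. An ISRE (GAAA, any 2 bases, GAAA) was present in 11 of them (13.8%), beside 2.95% of the 11257 promoters of genes tested. The κB motif was present in 10 (12.5%, beside 5.00%), GAS (TTCNNNGAA) in 8 (10.0%, beside 6.79%), and the TATA box (TATAAA) in 8 (10.0%, beside 7.03%). AP-1 (TGANTCA) was present in 3 (3.75%, beside 4.57%), the ATF-C/EBP element (TGATGNAA) in 1 (beside 2.11%), and CRE (TGACGTCA) in none (beside 3.19%). Over all 27457 promoters the shares were 3.77% for ISRE, 4.16% for the κB motif and 8.68% for GAS. They were 14.3% for the TATA box, above the members' 10.0%, 7.33% for AP-1, 3.82% for the ATF-C/EBP element and 1.91% for CRE. Both strands were searched, a GAS and an ISRE may lie side by side as above, and no base was shared between them in the printed sequences. With the transcribed strand only, the κB share of the members was 6.25%, beside 2.89% of genes tested. A match is a run of letters and not a measured binding site, and these shares carry no test.

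**Figure D4:**
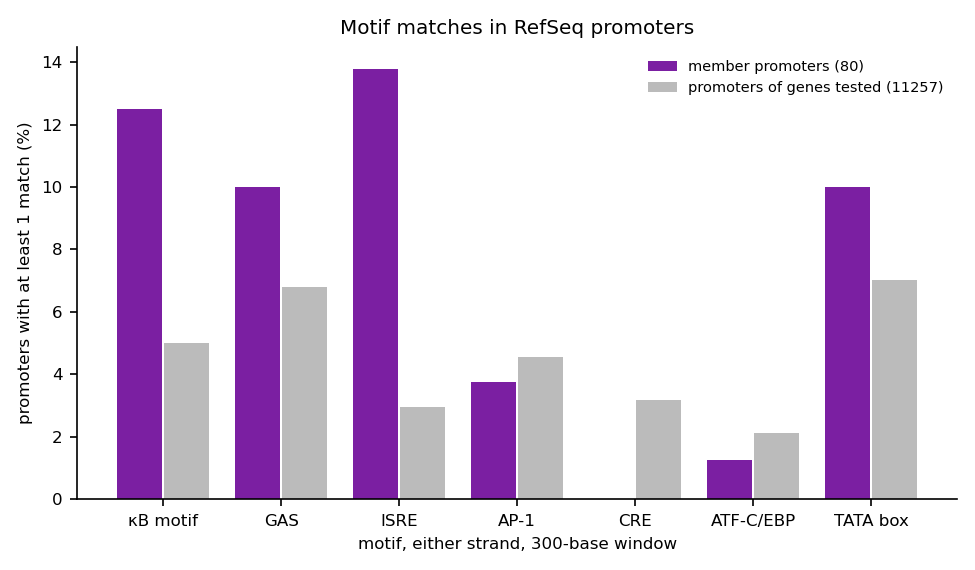
Share of promoters with at least 1 match to each of 7 motifs, for the 80 member promoters and for the 11257 promoters of genes tested, in percent from 0. The member bars are higher for the κB motif, GAS, ISRE and the TATA box and lower for AP-1, CRE and the ATF-C/EBP element; the shares rest on 11 promoters or fewer.

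The 69 members called with neither treatment alone are 67.0% of the members, a share under the 78.2% of all genes tested, and they included 8 of the 12 members with the highest CPM. In 40 of them both separate log2 fold changes were under 0.5 in size. Sox4, a transcription factor of endocrine progenitors, was at 181, 129 and 133 CPM in untreated, 206, 190 and 187 in IL-1βlow, 140, 136 and 166 in CYT and 339, 307 and 325 in IL-1βlow + CYT libraries. The untreated and CYT libraries overlapped (log2 fold change 0.01 ± 0.12, adjusted p = 0.957). Glb1l2, a galactosidase-like gene, was at 95.8, 91.5 and 94.4 CPM in untreated, 129, 117 and 123 in IL-1βlow, 149, 103 and 96.8 in CYT and 297, 285 and 287 in IL-1βlow + CYT libraries. Its CYT libraries spread across the IL-1βlow ones, while its IL-1βlow + CYT libraries lay close together.

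Kcnj2, the inward rectifier potassium channel Kir2.1, was at 46.2, 52.9 and 42.4 CPM in untreated, 77.4, 71.4 and 78.8 in IL-1βlow, 64.0, 51.6 and 50.4 in CYT and 189, 177 and 224 in IL-1βlow + CYT libraries. Its IL-1βlow libraries lay above the untreated ones, with a log2 fold change of 0.67 ± 0.12 that missed the threshold (adjusted p = 0.0117) and passed it in 6 alternative fits at the same threshold, the replicate block and DESeq2's Wald test among them. Calb1, the calcium buffer calbindin, was at 11.5, 8.50 and 10.4 CPM in untreated, 12.5, 11.3 and 14.0 in IL-1βlow, 13.5, 9.81 and 10.5 in CYT and 41.8, 35.9 and 39.4 in IL-1βlow + CYT libraries. The 3 other groups of Calb1 overlapped, and its IL-1βlow + CYT mean was 3.10 times the highest of them. Ryr2, the calcium release channel of the endoplasmic reticulum, had means of 10.1, 10.1, 9.43 and 19.5 CPM, and Gjd2, the connexin that couples β-cells, of 73.2, 78.7, 79.4 and 132 CPM in the same order of groups. Gjd2 was the 1 member among 54 β-cell genes tested, of which CYT lowered 24 and raised 2.

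Man1a2, a Golgi mannosidase of N-glycan trimming, was at 72.9, 77.8 and 79.9 CPM in untreated, 76.3, 66.8 and 89.9 in IL-1βlow, 82.6, 72.0 and 88.2 in CYT and 151, 142 and 212 in IL-1βlow + CYT libraries. Its separate log2 fold changes were 0.09 ± 0.13 and 0.00 ± 0.13, with adjusted p of 0.57 and 0.999. Gsn, the actin-severing protein gelsolin, had means of 113, 153, 158 and 241 CPM, and the receptor phosphatase gene Ptprz1 of 91.9, 97.3, 135 and 223 CPM. Mycbp2, with means of 83.9, 93.5, 129 and 194 CPM, passed the p-value threshold with CYT (adjusted p = 7.27e-05) but not the fold change minimum at 0.64 ± 0.10, as did Ptprz1 at 0.57 ± 0.14 (adjusted p = 0.00293). LOC102551518, a protein-coding gene named Foxo1l in GRCr8, had means of 85.9, 96.5, 76.5 and 154 CPM.

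Among the less abundant genes of this class, Brs3, an orphan bombesin-like receptor, never exceeded 1.78 CPM in the 3 other groups and was at 6.73, 3.46 and 4.92 CPM in IL-1βlow + CYT libraries. Cav1, the scaffold protein of caveolae, was at 1.63, 0.466 and 0.506 CPM in untreated and 5.04, 1.78 and 3.72 CPM in IL-1βlow + CYT libraries, so its lowest IL-1βlow + CYT library was only 1.09 times its highest untreated library. Smim3 and Lrriq4 had means of 7.72 and 3.06 CPM in IL-1βlow + CYT cells, 3.13 and 3.39 times the highest other mean. Adamts17 had means of 16.9, 17.5, 18.1 and 31.3 CPM. Serpinb9, the granzyme B inhibitor, had means of 5.19 CPM with CYT and 10.2 CPM with IL-1βlow + CYT, and Tnfsf13, the B-cell ligand APRIL, of 0.787 and 2.00 CPM. Each of Tnfsf13, Lpl and Lrriq4 gained a call with CYT when 1 library was left out. These libraries were untreated replicate 1, untreated replicate 2 and CYT replicate 3, in that order. Tnfsf13 and Lrriq4 pass the filter only through the IL-1βlow + CYT libraries, so nothing is read from their calls.

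Bcl3 and Fgf1 were among the 9 members with untreated cells as the second-highest group. Bcl3, an atypical IκB protein that binds p50 and p52 dimers, was at 4.32, 3.78 and 6.13 CPM in untreated, 3.46, 3.63 and 3.15 in IL-1βlow, 5.18, 4.34 and 2.92 in CYT and 8.17, 8.99 and 8.34 in IL-1βlow + CYT libraries. Its untreated and CYT libraries overlapped, and neither test passed. Of 41 NF-κB subunits and feedback regulators tested, 20 were called higher with CYT, and Bcl3, which was not, was the 1 member. Fgf1, a growth factor without a signal peptide, had means of 2.66, 2.40, 1.96 and 5.18 CPM.

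LOC100909928, a long non-coding RNA, was the 1 member called lower with CYT in the fit of all libraries, with a log2 fold change of -2.16 ± 0.49 (adjusted p = 0.00147). It was at 4.32, 2.27 and 3.48 CPM in untreated, 8.61, 4.12 and 8.07 in IL-1βlow, 1.40, 0.676 and 0.154 in CYT and 13.6, 9.14 and 14.2 in IL-1βlow + CYT libraries. The CYT libraries were the lowest without overlap. Among the genes tested it lies between Clec2g, a C-type lectin gene, and Cd69 in GRCr8, and both neighbours are members too. Clec2g followed the same order, with 1.94, 0.451 and 0.616 CPM in CYT and 17.1, 7.75 and 12.5 CPM in IL-1βlow + CYT libraries, but replicate 1 was the highest of its group in all 4 groups, and its log2 fold change with CYT, -1.34 ± 0.56, did not pass (adjusted p = 0.048). It passed with the replicate block (-1.38, adjusted p = 0.000243), without CYT replicate 1 (-2.20, adjusted p = 0.00902) and without a filter on low counts (-1.27, adjusted p = 2.15e-05); over the alternatives its adjusted p ran from 2.15e-05 to 0.266. Cd69 rose with CYT, so the 3 neighbours did not share a response to the challenge alone.

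The joint change was set beside the sum of the separate log2 fold changes, which is what independent multiplicative effects would give; since the joint change is what the rule used, this is a description. It exceeded the sum in 84 of the 103 members (81.6%), beside 52.4% of all genes tested, and the median excess was 0.65 for the members and 0.04 for all genes. Without the 8 members that had at most 3 counts in every library of another group it was 78 of 95, with a median of 0.69 and a range from -2.15 to 3.10. The 9 members called with both treatments all lay below the sum, from -2.15 for Tmem176a to -0.09 for Dpysl3. Of the 69 called with neither, 68 lay above it, with Calb1 at 1.48, Kcnj2 at 1.15 and Cav1 at 3.10. The rule sets the joint level at least 1.5 times above each separate one. Where a separate change is small, this nearly forces the excess, so nothing is read from the contrast between these classes. Cav1 also passes the filter only through the IL-1βlow + CYT libraries. In CPM, where independent effects would add, the joint rise exceeded the sum of the separate rises in all 103 members, which the rule nearly forces, beside 52.3% of all genes. LOC100910973 rose jointly by 418.9 CPM, beside 160.3 CPM for the sum, and Tmem176a by 80.1 CPM, beside 34.99 CPM.

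**Figure D5:**
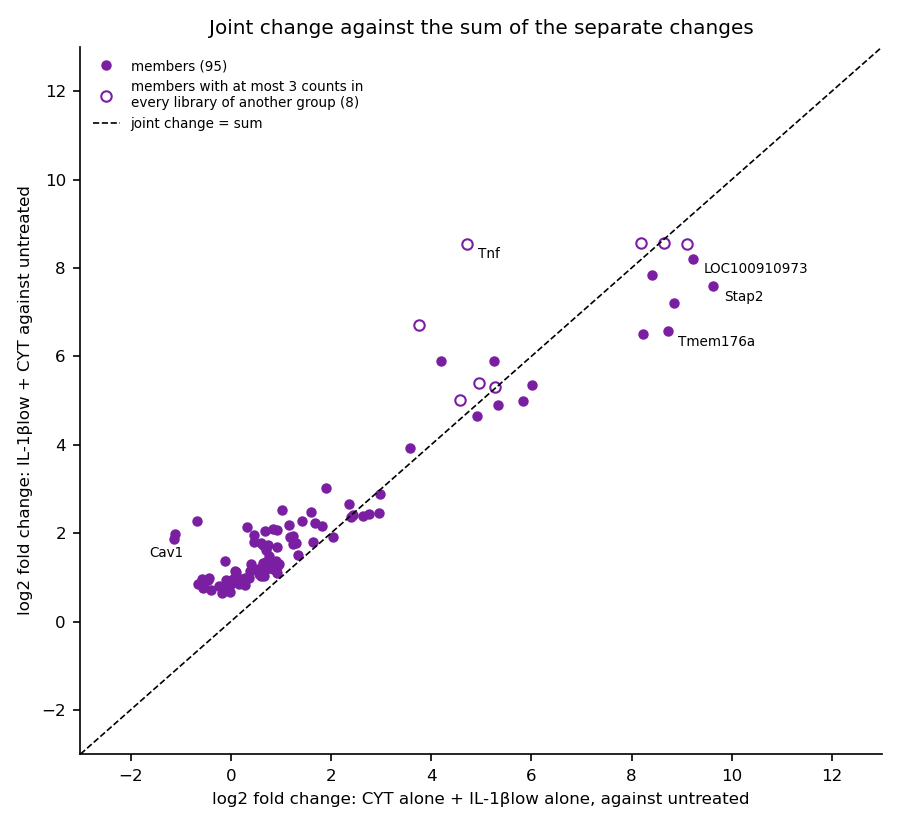
Log2 fold change of IL-1βlow + CYT against untreated cells (vertical) and the sum of the log2 fold changes of both treatments given alone (horizontal), 1 point per member; open points had at most 3 counts in every library of another group, and the dashed line is equality. Members with small separate changes lie above the line, which the rule nearly forces, and Tmem176a, Stap2 and LOC100910973 lie below it.

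Of the 103 members, 75 (72.8%) belonged to none of the gene lists, beside 91.1% of all genes tested. The TNF family gave 3 of 20 tested genes (15.0%, with Tnf, Tnfsf13 and Ngfr), beside 0.719% of all genes tested. Tnfsf13 passes the filter only through the IL-1βlow + CYT libraries, so nothing is read from that share. The list of proteases and protease inhibitors gave 4 of 33 (12.1%, with Adamts3, Adamts7, Adamts17 and Serpinb9). Ion channel subunits gave 5 of 178 (2.81%; Trpv3, Kcnj2, Ryr2, Clic2 and Clcn4). Chemokines and their receptors gave 1 of 17, Cxcl12, although 14 of those 17 were called higher with CYT. Solute carriers gave 2 of 246 (0.813%) and transcription factor families 2 of 229 (0.873%). The anti-apoptotic list (21 tested), the stress response list (39), the IL-1 family (10), the DUSP, SOCS and Sprouty list (49) and the Wnt, Notch, Hedgehog and TGF-β list (56) gave no member. Nothing is read from these absences, since only 0.719% of all genes tested were members and lists of this size can hold none. CYT raised 16 of the 39 stress response genes and lowered 6, and raised 7 of the 21 anti-apoptotic genes and lowered 1. Over all genes tested, 10.0% were called higher and 11.6% lower. These counts describe lists that were chosen with earlier results of these data known.

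Long non-coding RNAs made up 10 of the 100 members found in RefSeq (10.0%), beside 3.79% of the genes tested that were found there. Of these 10, 3 lie on chromosome 20 and overlap class I major histocompatibility genes of the RT1-CE cluster, and 4 more overlap a protein-coding gene on another chromosome. Their reads may therefore be those of the overlapping gene, and this was not tested. Among all members in RefSeq, 50 of 100 overlapped another gene, beside 45.0% of the genes tested. Neighbours were looked for among the genes tested and found in RefSeq, so untested genes may lie between them. Apart from the Clec2g, LOC100909928 and Cd69 group and the Tmem176 pair, neighbouring members were Kcnj2 with the non-coding RNA LOC120095206, and Klhl14 with LOC102555023.

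The genes outside the rule whose pattern was most like the mean pattern of the members, by Pearson correlation over the 12 libraries of log2(CPM + 1), were Aox3 (an aldehyde oxidase; r = 0.972), LOC102555063 (0.959), Rhbdl2 (a rhomboid protease; 0.958), Plekhh1 (0.942) and Cidec (0.941). Aox3 and LOC102555063 stayed under the 2 CPM minimum, at 1.39 and 1.90 CPM in IL-1βlow + CYT cells. Rhbdl2, Plekhh1 and Cidec missed the ratio, at 1.46, 1.47 and 1.498. The 103 members themselves correlated with that pattern between 0.557 and 0.983, with a median of 0.888, and all points share the libraries that chose the members.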

How the data were processed

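PolyA RNA of 12 INS-1E libraries was sequenced from TruSeq RNA libraries. The authors trimmed the reads, mapped them with Rsubread on the rat build mRatBN7.2 and summed them per gene symbol; the submitters' processing notes name FastQC, featureCounts and R 4.3.3. The deposited values are whole-number counts without normalization. All 12 columns were matched to a sample by library name, and the strand setting is not given in the sources used here.

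CPM used plain column totals. Genes above 1 CPM in at least 2 libraries entered 1 quasi-likelihood fit over the 4 groups with TMM factors (R 4.3.3, edgeR 4.0.16), with Benjamini-Hochberg adjustment over 14324 genes and the thresholds of the study's methods; DESeq2 1.42.0 and the other settings in the closing section were alternatives. On simulated counts of 13976 genes with 200 changed by a log2 fold of 1.5, the CYT contrast recovered 194 and called 2 unchanged genes. The simulation gave all genes 1 common dispersion and no replicate effect, and changed few of them. Its rates therefore check the code and do not carry over to these data. Counting error alone was bounded by depth: 3 counts were 0.148 to 0.190 CPM, and for folds, a group whose libraries all held 3 counts or fewer was set to 3 counts per library. Within groups, the chi-square of 2 libraries was 6.67 to 25.3 per degree of freedom, above sampling noise, and each counted as 1 replicate.

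Names, biotypes, overlaps and promoters came from RefSeq GRCr8, which is not the build of the files; 100 of 103 members matched. The κB motif was searched by its consensus with ambiguous bases.

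The members, the gene lists and the tests were chosen with earlier results of these data known. Named are the 12 members highest in CPM, the 12 with the highest ratio, the members in a list given by symbols, the 3 largest called rises and falls per test, the 3 genes on each side of the ratio limit, and the 5 nearest non-members; members outside this rule (Adgre1, Majin, Stap2, Htra3, Parp14, Ryr2, Vwa1, Clcn4, Trpv3, Clic2, Klhl14, Donson, Igsf9, Slc35d2, LOC102555023, LOC108352389 and non-coding RNAs) were chosen after their values were seen.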

Additional observations from a re-analysis of the deposited data

Results flagged for a closer look

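In 5 of the 103 members (4.85%) every CYT library lay below every untreated library, a share under the 35.9% of all genes tested. In these 5, as in all members by the choosing rule, every IL-1βlow + CYT library lay above every IL-1βlow library. The opposite signs are therefore a description, nothing is read from them, and the difference between the changes was not tested. The log2 fold changes without and with preconditioning were -0.73 and 0.78 for Cxcl12, -2.16 and 0.85 for LOC100909928, and -0.56 and 0.76 for Donson, a replication fork protein. They were -0.29 and 0.72 for Igsf9, an immunoglobulin superfamily gene, and -0.71 and 0.77 for Slc35d2, a nucleotide sugar transporter. Of these 5 falls without preconditioning, 1, that of LOC100909928, passed both thresholds of edgeR's quasi-likelihood test.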

How the results depend on the processing

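Members numbered 103; 36 with a ratio of 2, 192 with a looser ratio, 77 to 121 under the other settings, and 96 to 116 with 1 library left out. Without each library in turn, 94 to 103 of the 103 members remained. Members called with CYT numbered 33 (32.0%, beside 21.6% of all genes). They numbered 15 of 77 tested with at least 10 counts in every library (19.5%, beside 18.7%). At an adjusted p under 0.05 without a fold minimum they numbered 59 (57.3%, beside 62.3%). They were 31 to 36 otherwise (beside 14.6% to 22.7%), and 31 to 34 with 1 library left out (beside 19.3% to 22.3%). Members called with IL-1βlow numbered 10 (9.71%, beside 0.433% of all genes). They numbered 18 without a filter on low counts (17.5%, beside 0.945%) and 16 with exactTest (15.5%, beside 0.956%). At an adjusted p under 0.05 without a fold minimum they numbered 16 (beside 1.35%). They were 7 to 15 otherwise (beside 0.41% to 0.984%). The 7 were of 77 tested with at least 10 counts in every library, and the fit of only the 2 groups compared tested 84. With 1 library left out they were 6 to 9 (beside 0.112% to 0.519%). With a replicate block, 34 members were called with CYT (33.0%, beside 22.7% of all genes), including all 33. With the same block, 13 were called with IL-1βlow (12.6%, beside 0.984%), including all 10. Clec2g was then called lower with CYT (-1.38, adjusted p = 0.000243). Deviations of same-numbered libraries correlated between 0.116 and 0.52 in all 9 pairs of treated groups, but between -0.188 and 0.181 in the 9 pairs with an untreated library, 4 of them over 0.1 (mean of all 18 pairs 0.191, of other pairs -0.0943), so the numbers were not taken to pair the contrasts with untreated cells. The held-out share was 94.6% with replicate 3, 98.3% with replicate 1 and 98.1% with replicate 2. On the transcribed strand only, 6.25% of member promoters held the κB motif (beside 2.89% of genes tested) and 11.2% an ISRE (beside 1.45%). A TATA box was held by 5.00% (beside 4.45%) and the ATF-C/EBP element by 0% (beside 1.03%). The cause of these shifts was not tested beyond what fewer genes or libraries imply. Of 1161 comparisons of single named genes with an alternative, 1111 kept their call, 35 gained one and 15 lost one, and none of the called genes changed direction.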
